A study of Mus musculus with 2 samples.

Results

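The region described here is the part of mouse chromosome 14 that lies distal of Gjb6, the gene of the astrocytic gap junction protein connexin 30 (Cx30). Its members are the probes of the array whose lower coordinate in the mm9 build lies above 57742285, the end of the brightest Gjb6 probe, and up to 77742226, which gives 20 Mb. Gjb6 itself and 9 other names, the neurofilament genes, Egr3 and genes named Adam or Tnfrsf, were left out. This left 505 probes with 347 of the 37005 gene names on the array. Of these genes, 210 had a probe well above background on at least 1 array and are called detected, and 137 did not.

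The values come from striatal RNA of WT mice and of Cx30 KO mice, with 1 single-colour array for each genotype. Each array holds the pooled RNA of 2 male mice, 8 weeks old, on day 1 after 4 injections of 20 mg/kg MPTP, a toxin of dopaminergic neurons, at 2 h intervals, so both groups had received the toxin. By the labels the WT mice were C57BL/6J and the Cx30 KO mice Cx30-LacZ, while by the methods the WT controls were non-mutant offspring of heterozygous parents. The deletion, the chromosome segment inherited with it and the 2 mice of a pool cannot be told apart with these arrays.

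A targeted allele is inherited together with the stretch of chromosome around it. Genes near a targeted locus can therefore carry the alleles of the strain in which the allele was made, and the length of that stretch differs between lines. The region distal of Gjb6 holds genes of many unrelated functions, such as the Hippo kinase gene Lats2, the retinoblastoma gene Rb1, the clusterin gene Clu and the cathepsin B gene Ctsb. It also holds genes of mitochondrial enzymes, small families of neighbouring copies such as the Phf11 genes and the beta-defensins, and long non-coding RNAs. The arrays measure RNA and give no genotype at any position, so the strain of origin of the region was not tested.

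Sequences are given for 4 neighbouring Phf11 genes, because these copies lie side by side, and for the probes of 2 non-coding transcripts. In 1 of these transcripts a probe was lower in Cx30 KO and the other probe higher. That other probe was well above background in Cx30 KO only, so its direction was fixed by the filter. In the second transcript all probes were lower in Cx30 KO. The Phf11 genes encode PHD finger proteins with links to interferon and immune cells. The RefSeq promoter table of the GRCm38.p6 build holds 96 of the 347 genes. The 250 bases before the start site of Phf11a, Phf11b, Phf11c and Phf11d follow, all on the minus strand, with any match to the core GAAANNGAAA of an interferon-stimulated response element, searched on both strands, in capitals.
Phf11a, chr14:59297523-59297772: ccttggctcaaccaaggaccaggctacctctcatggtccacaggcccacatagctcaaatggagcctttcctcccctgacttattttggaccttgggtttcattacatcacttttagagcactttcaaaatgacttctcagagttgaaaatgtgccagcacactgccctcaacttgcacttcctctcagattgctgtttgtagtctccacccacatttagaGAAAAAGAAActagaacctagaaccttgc
Phf11b, chr14:59341331-59341580: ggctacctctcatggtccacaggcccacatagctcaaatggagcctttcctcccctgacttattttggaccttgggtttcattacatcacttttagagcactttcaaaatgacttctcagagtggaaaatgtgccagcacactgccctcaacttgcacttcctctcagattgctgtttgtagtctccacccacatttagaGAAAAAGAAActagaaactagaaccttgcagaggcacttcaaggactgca
Phf11c, chr14:59393513-59393762: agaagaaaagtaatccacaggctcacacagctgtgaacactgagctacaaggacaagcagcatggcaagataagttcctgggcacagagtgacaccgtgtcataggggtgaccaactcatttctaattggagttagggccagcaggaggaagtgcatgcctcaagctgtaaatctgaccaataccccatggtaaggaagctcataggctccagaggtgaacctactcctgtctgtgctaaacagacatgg
Phf11d, chr14:59365491-59365740: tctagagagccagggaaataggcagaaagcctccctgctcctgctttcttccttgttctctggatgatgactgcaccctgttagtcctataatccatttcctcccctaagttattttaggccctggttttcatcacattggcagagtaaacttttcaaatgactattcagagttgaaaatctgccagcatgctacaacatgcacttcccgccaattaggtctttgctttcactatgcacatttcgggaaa

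The match begins 29 bases before the start site in Phf11a and 50 bases before it in Phf11b, and both windows share 90.8% of their bases in an alignment. These letters are not in the windows of Phf11c and Phf11d. Over the table, 2.98% of 32851 promoters and 3.46% of 27025 genes hold such a match. Of the 64 detected member genes with a promoter in the table, 3 do. A match is a description of the letters and not a binding site.

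The probes of the non-coding transcript 4930480K23Rik and of the lincRNA interval chr14:77511189-77522852_F are given as the array file lists them, 60 bases each, on the plus strand of mm9.
4930480K23Rik, chr14:70132878-70132937: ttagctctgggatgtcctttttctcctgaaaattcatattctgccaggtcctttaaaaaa
4930480K23Rik, chr14:70133071-70133130: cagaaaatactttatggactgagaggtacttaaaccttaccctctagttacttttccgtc
lincRNA, chr14:77511446-77511505: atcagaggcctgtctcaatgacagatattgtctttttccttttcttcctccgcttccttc
lincRNA, chr14:77511610-77511669: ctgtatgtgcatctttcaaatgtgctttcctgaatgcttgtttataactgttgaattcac
lincRNA, chr14:77511978-77512037: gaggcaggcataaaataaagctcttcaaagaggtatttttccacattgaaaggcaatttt

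Signals are the scanner's processed signals in arbitrary units, and log2 ratios are those of Cx30 KO over WT after each array was scaled to its 75th percentile, 401.2 for WT and 381.8 for Cx30 KO. A gene is represented by its brightest detected probe. It is called lower when its Z-score, taken against the 1000 probes nearest in mean signal, is at most −2 and its ratio at most 0.66, and higher when the Z-score is at least 2 and the ratio at least 1.5. An error after a log2 ratio is the scanner's own error of both signals and covers neither mice nor pools. No error between mice, no test and no p-value can be given with 1 array for each genotype.

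The targeted gene went with the labels. The brightest Gjb6 probe read 1788 in WT and 110.8 in Cx30 KO, giving a log2 ratio of −3.94 ± 0.21. Striatal neuron markers had close summed signals, 455889 for WT and 459785 for Cx30 KO, and 0 of 8 met the criteria. Markers of other cells moved between the arrays. All 7 oligodendrocyte markers had ratios below 1, 5 of them called lower, and their summed signal came to 175405 in WT and to 104668 in Cx30 KO. Of 8 microglial markers, 7 had ratios below 1 and 4 were called lower, with sums of 91249 and 83919. Of 5 cortical neuron markers, 4 were called higher, with sums of 169.8 and 1346, and Slc17a7, Neurod6 and Emx1 were not well above background in WT. Of 8 astrocyte markers 1 was called lower, with sums of 159120 and 142727, and of 6 endothelial markers 1 was called lower, with sums of 6924 and 5679. In whole striatum, fewer cells of a type and less RNA for each cell cannot be told apart, and the part of these markers in the results on the region was not tested.

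The called genes of the region were mostly lower in Cx30 KO mice. Of the 210 detected genes, 18 were called lower, which is 8.57%, against a background of 3.34% of the 21802 other detected genes. The 5 genes called higher make 2.38%, beside a background of 2.37%. The excess over the background therefore stood in the lower direction. Most genes hardly differed. The median log2 ratio over the detected genes was −0.01, beside 0.03 over all other genes, and the middle of the distribution ran from −0.25 to 0.18 between the 25th and the 75th percentile. The median size of the log2 ratio without its sign was 0.21, beside 0.19 elsewhere.

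Of the 23 called genes, 7 were well above background on 1 array only. Such a gene entered because of the array where it was bright, so its count is no support for a difference. Among the 189 genes well above background on both arrays, 13 were lower and 3 were higher, 6.88% and 1.59%, and among 20118 other genes detected on both arrays the shares were 2.43% and 1.62%. Proximal of Gjb6, in the neighbouring 20 Mb, 20 genes of 227 were lower and 19 were higher, or 10 and 11 of 184 on both arrays. Beyond the region, towards the end of the chromosome, 3 genes of 150 were lower and 4 were higher, or 2 and 1 of 133 on both arrays. The proximal side thus had called genes in both directions, the distal side mostly in the lower one. With the normexp background correction in place of the scanner's, 8 of the 23 genes no longer met the criteria, namely Lats2, Shisa2, Lcp1, Piwil2, AK040829 and the 3 lincRNA intervals. With the mean of all detected probes of a gene, 5 did not, namely Lats2, Phf11d, Bmp1, 4930480K23Rik and the lincRNA printed above, while Lgi3 and Slc25a37 then did. With a Z-score over all probes, 11 did not, namely Pdlim2, Slc39a14, Bmp1, Hr, Gfra2, Dock5, Sucla2, Lats2, Lcp1, Shisa2 and the lincRNA interval called higher. In their place 6 dim genes then met the criteria, Phf11a, Arl11, Gm9779, 1700039M10Rik, 9930012K11Rik and 4930444M15Rik, each well above background on 1 array only.

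**Figure D1:**
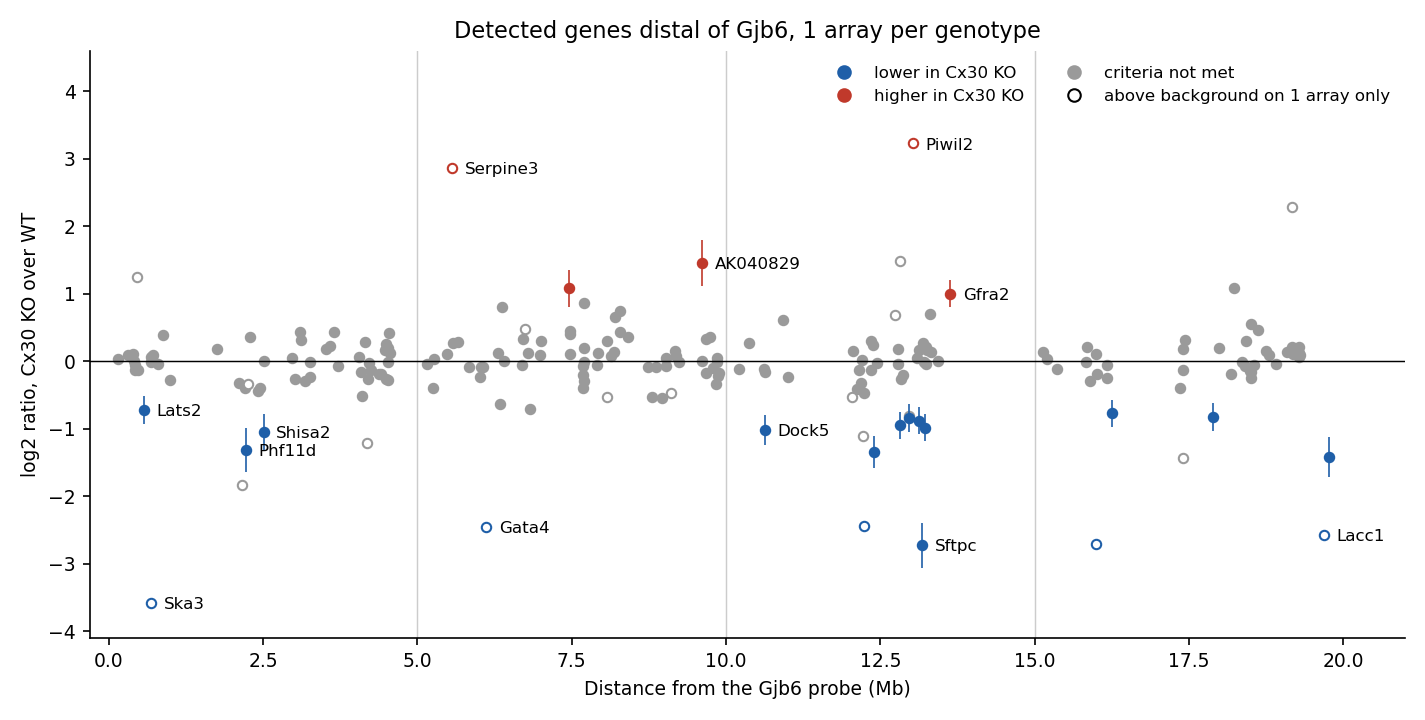
Log2 ratio of Cx30 KO over WT for the 210 detected genes against the distance of the brightest probe from the Gjb6 probe in Mb. Each point is a gene on 1 array for each genotype, blue where called lower, red where called higher and grey otherwise, open where 1 array alone was well above background; bars on filled coloured points are the scanner's error. Grey points lie around 0 along the whole region, and blue points gather between 12 and 14 Mb.

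Next to Gjb6 the genes had nearly the same level in both genotypes. The nearest detected gene was Cryl1, a lambda-crystallin dehydrogenase gene at 0.15 Mb, with signals of 879.5 for WT and 852.2 for Cx30 KO and a log2 ratio of 0.03 ± 0.20. Ift88, a gene of intraflagellar transport in cilia, had a log2 ratio of 0.11, the cytokine gene Il17d −0.05, Eef1akmt1, a lysine methyltransferase of elongation factor 1A, −0.13, and the nuclear exportin gene Xpo4 −0.14. ENSMUST00000119952, AU020094 and Sap18b lay between −0.02 and 0.08. The probe of 1700039M10Rik was well above background in Cx30 KO only and did not meet the criteria. Of the 10 nearest detected genes, Lats2 was the 1 that was called.

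Lats2, a kinase of the Hippo pathway at 0.57 Mb, had signals of 194.1 in WT and 112.0 in Cx30 KO, giving a log2 ratio of −0.72 ± 0.21. A dimmer probe of Lats2 had 39.0 and 30.8 and did not meet the criteria. Ska3, a subunit of the complex that links kinetochores to the spindle, lay at 0.69 Mb. Its signal of 49.4 in WT stood against 3.93 in Cx30 KO, which was not well above background, so it was at least 2.71-fold lower. Among the other genes of cell cycle and DNA repair the values were close to 0. In this list 2 of 9 detected genes were lower and none (0) higher, with a median log2 ratio of −0.09. Ska3 passed the filter through WT alone, so its direction was fixed by it. Among the 8 genes measured on both arrays, 1 was lower and 0 were higher. For this list and those below, the background over all other detected genes was 3.34% lower and 2.37% higher. On both arrays it was 2.43% and 1.62%. The retinoblastoma gene Rb1 had 782.1 in WT and 858.2 in Cx30 KO.

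The Phf11 genes lie between 2.15 and 2.26 Mb. Phf11d had signals of 74.6 in WT and 28.5 in Cx30 KO, giving a log2 ratio of −1.32 ± 0.33, and was called lower. A dimmer Phf11d probe, with 29.5 and 20.2, was well above background in WT only and did not meet the criteria. Phf11a had 29.2 and 7.75 and was above background in WT only, at least 1.60-fold, but its Z-score of −1.60 missed the criteria. Phf11c, with 23.6, was likewise measured in WT alone, at least 1.27-fold, and missed them too. Phf11b had 54.1 and 39.3, a log2 ratio of −0.39, and was not called. Phf11b and Phf11d were thus the 2 genes of the family measured on both arrays, and 1 of them was called. The probes of this family can share RNA of neighbouring copies: the Phf11a probe and the bright Phf11d probe have 48 of 60 bases in common.

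Within the immune and interferon-linked genes, 3 of 12 detected members were lower and 0 were higher, beside a background of 3.34% and 2.37%. Phf11a, Phf11c and Lacc1 passed the filter through WT alone, so their direction was fixed by it. Of the 9 members measured on both arrays, 2 were lower and 7 had ratios below 1, with a median log2 ratio of −0.29. Lcp1, the actin-bundling L-plastin of leukocytes at 17.89 Mb, had signals of 268.9 in WT and 143.9 in Cx30 KO, giving a log2 ratio of −0.83 ± 0.21. Its other 2 detected probes had log2 ratios of −1.80 and −0.90, so all 3 lay below 0. Lacc1, an enzyme of purine metabolism in macrophages, had 49.3 in WT and 7.88 in Cx30 KO, where it was not well above background, and was at least 2.70-fold lower. Scara3, a scavenger receptor gene, had 1109 and 729.5 and did not meet the criteria, and the lysophosphatidic acid receptor gene Lpar6 had 727.6 and 564.7. Microglial markers moved with this list, with a median log2 ratio of −0.52 over 8 markers, and their part in it was not tested.

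**Figure D2:**
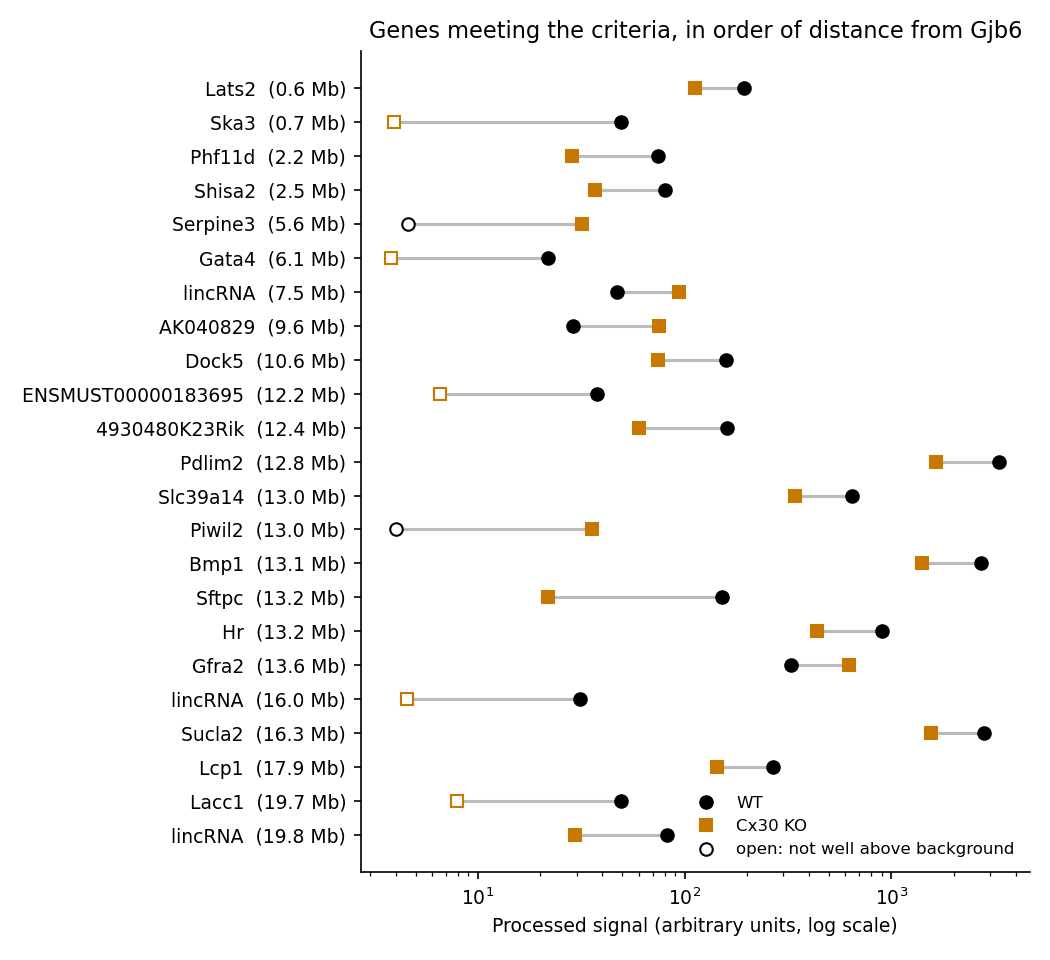
Processed signals in arbitrary units on a log scale for the 23 called genes, ordered by distance from Gjb6. Black circles are the WT pool and orange squares the Cx30 KO pool, 1 array each, and open symbols were not well above background. Pdlim2, Bmp1 and Sucla2 are the called genes with signals above 1000 in both pools, and the open symbols sit below 10.

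Among receptors and signalling genes of neurons, 1 of 15 detected genes was lower and 1 was higher, beside a background of 3.34% and 2.37%. Gfra2, the GFRα2 receptor for the neurotrophic factor neurturin at 13.64 Mb, had signals of 326.7 in WT and 622.8 in Cx30 KO, giving a log2 ratio of 1.00 ± 0.21, and was the brightest gene called higher. Shisa2, which holds back the maturation of FGF and Wnt receptors, had 80.1 and 36.8, giving a log2 ratio of −1.05 ± 0.27. The rest of the list showed small differences. Ptk2b, a calcium-dependent tyrosine kinase, had 40574 and 39997, the stathmin family gene Stmn4 54667 and 51558, and the serotonin receptor gene Htr2a 661.7 and 476.1. The median log2 ratio of the list was −0.01.

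Genes of secreted factors and matrix included the lowest ratio among genes detected on both arrays. Sftpc, known as the surfactant protein C gene of the lung, had signals of 152.0 in WT and 21.9 in Cx30 KO, giving a log2 ratio of −2.73 ± 0.33 or 6.62-fold lower, with a Z-score of −5.34. It rests on 1 probe, and with normexp its log2 ratio was −1.25. Its signal in Cx30 KO lay near 17.4, the lowest signal well above background on that array. Bmp1, the procollagen C-proteinase, had 2727 and 1411, giving a log2 ratio of −0.88 ± 0.20. The other 2 Bmp1 probes were dimmer and had log2 ratios of −0.48 and −0.13, neither of which met the criteria. Clu, which encodes the secreted chaperone clusterin and was the brightest of the list, had 95658 and 85422, giving a log2 ratio of −0.09. Fgf9 had 1396 and 1096, Extl3 7202 and 7460, and the nociceptin precursor gene Pnoc 39.3 and 62.7. In this list 2 of 10 detected genes were lower, 0 were higher, and the list had a median log2 ratio of −0.11, and Fgf17, C1qtnf9 and Stc1 were not detected.

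Sucla2, the ADP-dependent subunit of succinyl-CoA synthetase in the citric acid cycle, was the mitochondrial gene called lower. Its signals were 2803 in WT and 1562 in Cx30 KO, giving a log2 ratio of −0.77 ± 0.20. Of the 7 detected genes in the mitochondrial list, 1 was lower and 0 were higher, beside a background of 3.34% and 2.37%. The median log2 ratio of the list was −0.07. The mitochondrial calcium uptake gene Micu2 had 884.4 and 816.4, Bnip3l, a receptor for the removal of mitochondria, 4210 and 3448, and the mitochondrial carrier gene Slc25a30 85.1 and 99.4, and none of these 3 met the criteria.

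The cytoskeleton, cilia and membrane traffic list held 24 detected genes. Of these, 1 was lower and none (0) higher, beside a background of 3.34% and 2.37%, with a median log2 ratio of −0.05. Dock5, which activates the small GTPase Rac, had signals of 157.8 in WT and 74.3 in Cx30 KO, giving a log2 ratio of −1.02 ± 0.22. A second probe had 59.6 and 22.1, and one more probe had 54.5 in WT alone. All 3 probes of Dock5 were called lower, but the direction of the 1 measured in WT alone was fixed by the filter. Among the 61 members with 2 or more detected probes this was the sole case, beside 53 of 7718 other genes. Both counts hold probes measured on 1 array only, so they are no support for a difference. Abundant genes of the list were close in both pools, as Tpt1, the translationally controlled tumour protein gene, with 59583 and 50931, and Serp2 with 17837 and 18306. Oligodendrocyte markers had a median log2 ratio of −0.73, and their part in the value of Dock5 was not tested.

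Of 23 detected genes of nuclear transport, transcription and chromatin, 2 were lower and 0 were higher, with a median log2 ratio of 0.05. The background was 3.34% and 2.37%. Gata4, 1 of the 2, passed the filter through WT alone, so its direction was fixed by it. Among the 22 genes measured on both arrays, 1 was lower and 0 were higher. Hr, the hairless corepressor of nuclear receptors, had signals of 904.5 in WT and 434.8 in Cx30 KO, giving a log2 ratio of −0.99 ± 0.20. Gata4, a transcription factor of the developing heart, had 21.9 in WT and 3.80 in Cx30 KO, where it was not well above background, and was at least 1.20-fold lower. Sox7 had 129.6 and 75.3 and missed the criteria, and Sap18, a subunit of a histone deacetylase complex with the highest signal of the region, had 152364 and 151009.

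Among genes of the lysosome, lipids and metabolism, 1 of 14 detected genes was lower, beside a background of 3.34%, with a median log2 ratio of −0.09. The list also holds Piwil2, which is no enzyme of this kind and was its 1 gene called higher. Slc39a14, a membrane carrier that imports zinc, iron and manganese, had signals of 647.2 in WT and 343.0 in Cx30 KO, giving a log2 ratio of −0.84 ± 0.21. Piwil2 binds piRNAs in the germ line. It was not well above background in WT and had 35.8 in Cx30 KO, at least 1.90-fold higher. Its direction was thus fixed by the filter. Ephx2, the soluble epoxide hydrolase, had 2136 and 1386 with a Z-score of −1.97 and a ratio of 0.68, and missed both limits. Entpd4, an enzyme that cleaves nucleoside diphosphates in the Golgi, had 8635 and 5931 with a ratio of 0.72, above 0.66. Both lay just outside the criteria. Ctsb, the lysosomal protease cathepsin B, had 56283 and 45654. None of the 5 beta-defensin genes was detected.

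Outside these lists 97 genes were detected, of which 5 were lower and 3 were higher, beside a background of 3.34% and 2.37%. Of the called genes, ENSMUST00000183695, chr14:73746324-73749119_R and Serpine3 were measured on 1 array only, so their direction was fixed by the filter. Pdlim2, a PDZ-LIM protein that limits NF-κB, had signals of 3331 in WT and 1640 in Cx30 KO, giving a log2 ratio of −0.95 ± 0.20. Serpine3, a serpin of unknown target, was not well above background in WT and had 32.0 in Cx30 KO, at least 1.70-fold higher. AK040829, named by its accession, had 28.9 and 75.6, giving a log2 ratio of 1.46 ± 0.34. The lincRNA interval chr14:65205583-65205906_R had 46.8 and 94.3, giving a log2 ratio of 1.08 ± 0.27, and chr14:73746324-73749119_R had 31.1 in WT only, at least 1.70-fold. Over 28 detected lincRNA intervals of 52, 2 were lower and 1 was higher, 7.14% and 3.57%. The background over all other detected genes was 3.34% and 2.37%. Among the 25 intervals measured on both arrays, 1 was lower and 1 was higher, beside 2.43% and 1.62% of other such genes.

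The printed lincRNA of 3 probes, at 19.77 Mb, was lower at each of them. The brightest probe had signals of 82.5 in WT and 29.4 in Cx30 KO, giving a log2 ratio of −1.42 ± 0.30, and met the criteria. The others had 72.5 and 33.0, and 42.0 and 23.3, log2 ratios of −1.06 and −0.78, and missed them. The printed transcript 4930480K23Rik was not lower at both of its probes. Its probe at the lower coordinate had 160.0 and 59.9, giving a log2 ratio of −1.35 ± 0.23, and was called lower. Its other probe, 193 bases further on, had 13.6 and 33.0, was well above background in Cx30 KO only and did not meet the criteria. The direction of that probe was fixed by the filter. ENSMUST00000183695, with 37.5 in WT and 6.56 in Cx30 KO, at least 2.06-fold lower, has its probe on the minus strand, where 50 of its bases overlap a plus-strand probe of Entpd4. That Entpd4 probe had 1009 and 584.5 and was itself called lower.

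**Figure D3:**
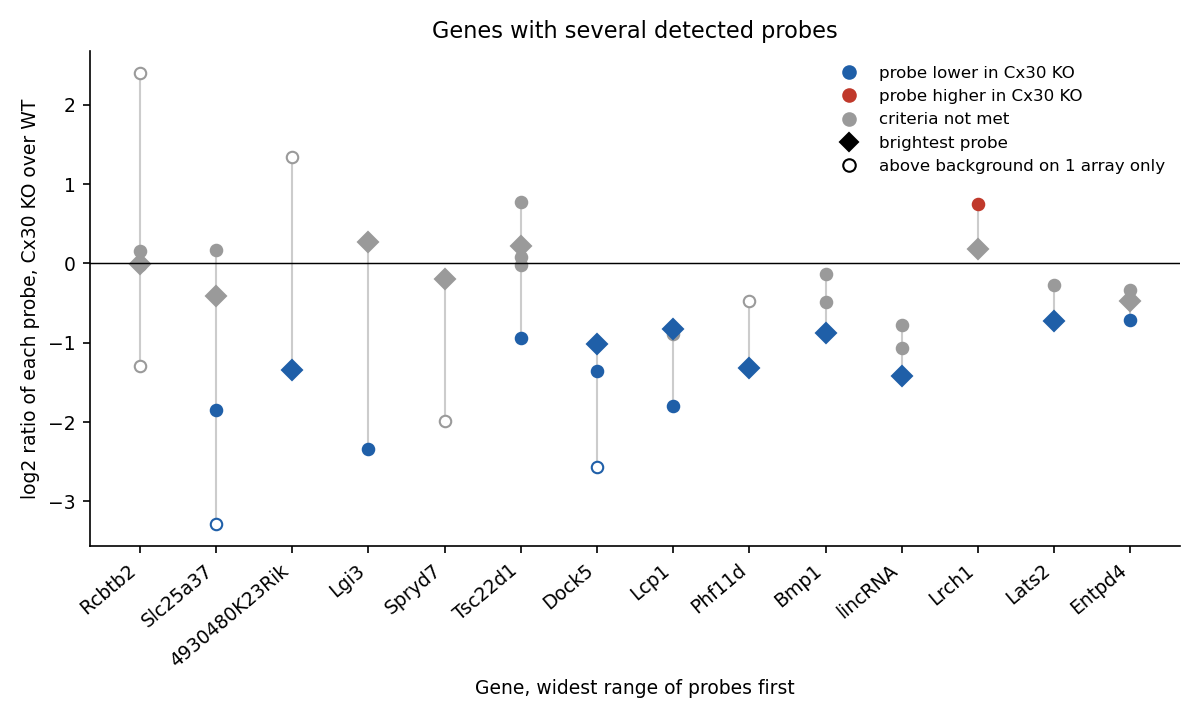
Log2 ratio of Cx30 KO over WT for each detected probe of the 14 genes that have several detected probes and either a called probe or a range over 1 log2 unit. Diamonds are the brightest probe, blue and red points were called lower and higher, and open points were well above background on 1 array only; 1 array for each genotype. The 3 Dock5 probes are all blue, whereas the Lgi3 probes lie at −2.34 and 0.27.

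Most genes with several detected probes had them within 1 log2 unit of each other. At the level of probes, 26 of 308 detected member probes were lower, 8.44%, beside a background of 2.88%, and 6 were higher, 1.95%, beside 2.07%. These counts hold probes measured on 1 array only and several probes of the same gene. They therefore add no support to the shares by gene. Of the 61 members with several detected probes, 7 had probes over 1 log2 unit apart, 11.5% beside 8.32% of 7718 other genes, and the median range was 0.37 beside 0.27. Among these 7, Lgi3 and Tsc22d1 alone had all their detected probes well above background on both arrays. The pooled SD between the probes of a member was 0.56 log2 units, beside 0.41 over all genes. It includes dim probes measured on 1 array only. The median scanner error of 0.21 is that of the 189 genes measured on both arrays, at their brightest probe. The SD and this error thus cover unlike sets of probes. No gene of the 61 had probes called in opposite directions, beside 5 of 7718 other genes. Such cases were rare everywhere, so this count says little about the members.

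Lgi3, a secreted leucine-rich protein of neurons, had 2 bright probes that differed. The probe for NM_145219 had signals of 1622 in WT and 1860 in Cx30 KO, giving a log2 ratio of 0.27. The probe for AK163664, 4.16 kb before it and 12.3 kb from the Sftpc probe, had 1487 and 279.4, giving a log2 ratio of −2.34 with a Z-score of −7.70, which lies further from 0 than that of any gene called in the region. Slc25a37, the mitochondrial iron importer mitoferrin-1, gave 1151 and 822.2 at its brightest probe, which missed the criteria. A probe 42.8 kb away had 297.4 and 78.6, giving a log2 ratio of −1.85, and was called lower, as was a probe for AK034948, 221 kb away and 9.29 kb from that of Loxl2, with 39.1 in WT only. Tsc22d1, a transcription regulator, had 29577 and 32703 at its brightest probe, whereas a probe for ENSMUST00000175984 had 228.9 and 113.2 and was called lower. In Rcbtb2 and Spryd7 the outlying probes were above background on 1 array only and none was called.

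Along the chromosome the called genes were unevenly spread. From 0 to 5 Mb, 4 of 57 detected genes were lower with 0 higher, and from 5 to 10 Mb 1 of 65 was lower and 3 were higher. From 10 to 15 Mb 8 of 45 were lower and 2 were higher, and from 15 to 20 Mb 5 of 43 were lower and 0 were higher. These counts hold genes measured on 1 array only, among them the lower gene from 5 to 10 Mb, Gata4. Among genes measured on both arrays, 3 of 52, 0 of 60, 7 of 38 and 3 of 39 were lower in order of distance, beside 2.43% of all other such genes. The share was thus 18.4% from 10 to 15 Mb, and 5 of these 7 lower genes lie in the stretch described next. The medians of the log2 ratios were −0.03, 0.03, −0.04 and −0.01 in order of distance, so the typical gene did not follow the calls.

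**Figure D4:**
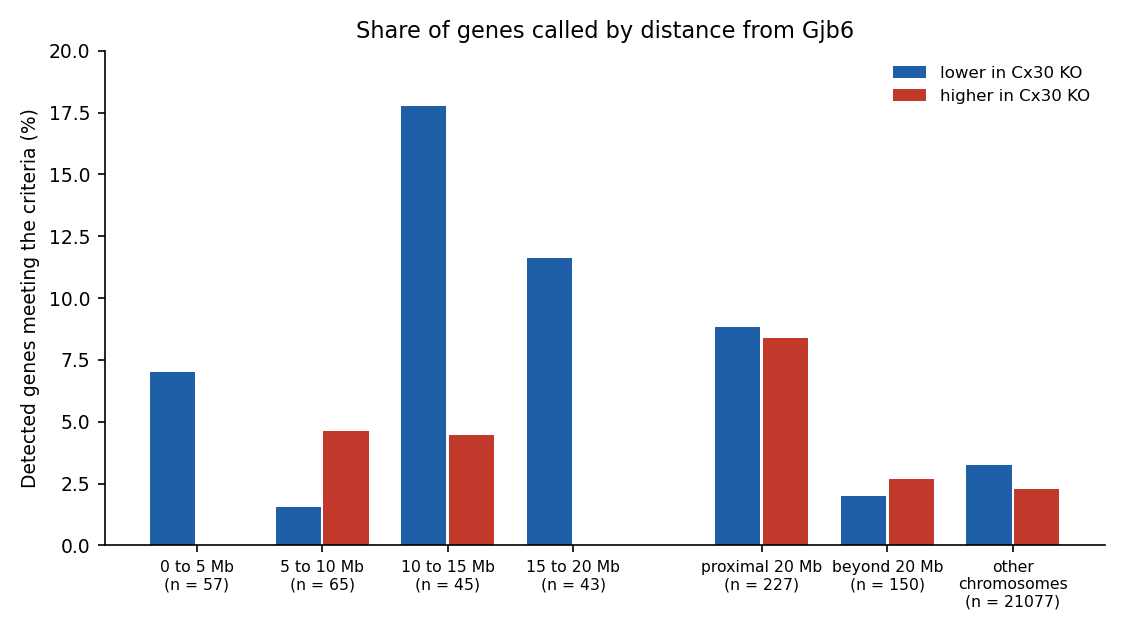
Percent of detected genes called lower (blue) or higher (red) in Cx30 KO in 4 intervals of 5 Mb distal of Gjb6, in the proximal 20 Mb, on chromosome 14 beyond the region and on the other chromosomes, with the number of detected genes under each pair of bars. Genes measured on 1 array only are included. The bar for lower genes from 10 to 15 Mb reaches 17.8%, against 3.25% on other chromosomes.

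A stretch of 0.82 Mb from Pdlim2 to Gfra2, chosen after its values were seen, held 20 detected genes. In order of position, Pdlim2, Slc39a14, Bmp1, Sftpc and Hr were lower and Piwil2 and Gfra2 were higher. The other genes of the stretch were mixed. Of the 20, 9 had ratios past the limits, the called genes included, beside 32 of the 190 members outside it. Among these 9, Piwil2 and 1700031C06Rik were measured on 1 array only. Over all other detected genes the share past the limits was 13.4%. Because the stretch was chosen from these values and ends at called genes, its counts are no support for a difference. Npm2, a histone chaperone of oocytes, had 25.7 in WT and 39.5 in Cx30 KO, and 1700031C06Rik 34.9 in WT alone, and neither met the criteria. Phyhip, next to Bmp1, had 18396 in WT and 19678 in Cx30 KO, Polr3d, a subunit of RNA polymerase III, 388.7 and 383.2, and Reep4, between Sftpc and Hr, 51.7 and 49.0. The stretch had a median log2 ratio of −0.00. Outside it, 13 of 190 members were lower and 3 were higher. No gene was detected over the next 1.49 Mb after Gfra2.

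At the far end of the region, the last 2 members, Lacc1 and the lincRNA printed above, were both lower. The first detected genes outside it were Gm6994, Enox1 and 6330531I01Rik with log2 ratios of 0.22, −0.33 and −0.56, and none was called. The member probes called lower had a median GC content of 35.0%, with 10 on the plus strand and 16 on the minus strand, whereas the 276 detected member probes that met no criterion had a median of 43.3%. Over all other probes of the array the medians were 41.7% for probes called lower and 43.3% for those not called. The part of GC content in the calls was not tested.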

How the data were processed

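Striatal RNA of MPTP-treated WT and Cx30 KO mice was hybridised to 60-mer Agilent arrays, 1 for each genotype. Precision is limited by that number of arrays. The authors extracted the spots with Agilent Feature Extraction, version 10.7.1.1 per the file headers and 9.5.1.1 per the labels. The deposited processed signals are linear intensities after background subtraction and detrending, not normalised between arrays. The deposited value table holds normalised intensities of the same arrays and served as an alternative. Arrays from mice given NS were not used here.

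Control and outlier spots were left out, spots were averaged as log2 intensity for each probe, and each array's 75th percentile was subtracted. A probe needed at least 50% of its spots marked well above background on at least 1 array. A gene measured on 1 array only has a bound, the ratio to its own signal on the other array or to the lowest signal there that was well above background, whichever was higher. Calls follow the study's limits of 1.5 and 0.66 with a Z-score of 2, here over the 1000 nearest probes. The rule was tested on simulated data, at probes brighter than the WT median only and with changes of at least 1.5 log2 units. The simulation thus does not cover dim genes or smaller changes. Symbols were updated through RefSeq. Named are up to 15 lower and 15 higher members detected on both arrays, up to 8 on 1 array, the 10 nearest to Gjb6, up to 10 with probes over 1 log2 unit apart, members of role lists, and those at the region's ends. Members and lists were chosen with earlier results of these data known. A cell type marker of the planned lists is not reported here. Python 3.11.15, numpy 2.4.6, pandas 2.3.3 and scipy 1.17.1 were used, with R 4.3.3 and limma 3.58.1 for normexp. Alternatives were quantile normalisation, median scaling, normexp with an offset of 50, the value table, no filter, both arrays, the mean of probes, a Z-score over all or the 200 nearest probes, and ratio limits of 2 and 0.5.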

Additional observations from a re-analysis of the deposited data

How the results depend on the processing

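The direction of the shares held under all 10 alternatives: 11 to 22 members were lower and 2 to 6 higher, and the share lower was above that of other genes each time. Lower genes fell to 11 with ratio limits of 2 and 0.5, and higher genes to 2 with normexp and 3 with genes on both arrays only. Of the 23 calls, 14 held under all 4 other scalings and 1, Sftpc, under all 10 alternatives. The log2 ratio of Sftpc nevertheless went from −2.73 to −1.25 with normexp. A Z-score over all probes kept 12 of them and lost 11, Pdlim2, Bmp1, Hr, Gfra2, Dock5, Sucla2, Lats2, Lcp1, Shisa2, Slc39a14 and a lincRNA. Ratio limits of 2 and 0.5 lost 7, quantile normalisation and the value table each lost Gata4, and a Z-score over the 200 nearest lost Shisa2. The median log2 ratio was −0.0598 with median scaling and −0.0865 without the filter, where the median of all genes was −0.02 and −0.07. The median size of the log2 ratio was 0.15 with normexp. By distance, calls from 0 to 5 Mb numbered 2 with normexp and 2 with the mean of probes, from 5 to 10 Mb 2 with normexp and 2 on both arrays, and from 15 to 20 Mb 2 with normexp and 3 on both arrays. By role, 2 mitochondrial genes were called with the mean of probes, and 1 gene was called under normexp for neuronal receptors, cell cycle and metabolism, under both arrays for nuclear genes, cell cycle and metabolism, under quantile normalisation and the value table for nuclear genes, and under the mean of probes for cell cycle. Genes with probes over 1 log2 unit apart numbered 4 with normexp. Of 258 values of named genes under other settings, 237 moved by less than the SD between probes, 20 by more, and 1 changed sign, 4930480K23Rik at 0.00016 with the mean of its probes. Most of these 20 came with normexp and lay nearer to 0, mainly at called genes. Phf11d went from −1.32 to −0.60, Shisa2 from −1.05 to −0.46 and Ska3 from −3.58 to −0.64. The causes were not tested. Dim genes are limited by the signal over background. No paired analysis was possible because each genotype has 1 array, and for the same reason no replicate could be left out.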
